A study of Homo sapiens with 6 samples.

Results

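The genes described here are the assembly factors of the large (60S) ribosomal subunit, measured as mRNA on polysomes of human breast cancer cells under low and normal oxygen. They were chosen by a list of 59 gene symbols, drawn up by known function: factors that process the large-subunit part of the pre-rRNA, build the pre-60S particle and export it. Earlier results of these data were known when the list was drawn up. All 59 were among the 30726 symbols of the deposited table, and 58 of them were above the filter on low values (3 or more of the 6 libraries at 1 RPKM or above), as were 10253 genes in all. The member below it was MDN1.

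Polysome RNA had been taken from 3 established lines, all labelled WT: the triple negative line SUM1315, the luminal HER2-positive line SKBR3 and the luminal A line T47D. Cells were taken after 8 hours in 1% oxygen (hypoxia) or from culture in 21% oxygen (normoxia). There was 1 library for each line at each oxygen level, which sets 3 hypoxic libraries against 3 normoxic ones with the lines as the only replication. All cells had received cycloheximide, which holds ribosomes on mRNA, and each line had its own growth medium. SUM1315 had EGF and insulin, T47D insulin and SKBR3 neither, so that line and medium cannot be told apart. Values are RPKM (reads per kilobase, scaled by library depth), and therefore shares of the polysome RNA sequenced. Less mRNA in the cell and fewer ribosomes on it cannot be told apart, and nor can fewer cells of a type and less RNA per cell.

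A large subunit is assembled in the nucleolus on a long precursor RNA, from which spacers are cut away while ribosomal proteins are added. Scaffold proteins, RNA helicases and GTPases join and leave in a fixed order, giant AAA ATPases then strip factors off, and the particle is exported and finished in the cytoplasm, where the last factors keep it from joining the small subunit too early. Many of these genes are known targets of MYC and are abundant in growing tumour cells. Most of the proteins act in the nucleus, while the values here concern their mRNAs on polysomes.

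The libraries carried the marks of their labels. ERBB2 stood at 743 (hypoxic) and 615 (normoxic) RPKM in SKBR3 and at 5.34 to 8.76 RPKM in the other lines. PGR was at 11.02 and 9.94 RPKM in hypoxic and normoxic T47D and at most 0.0282 RPKM elsewhere. VIM was at 1161 and 407 RPKM in hypoxic and normoxic SUM1315, where EPCAM, KRT8 and KRT18 reached at most 0.736 RPKM. Of the 3 markers of other cells, PTPRC and PECAM1 were at most 0.0077 RPKM in every library, and COL1A1 stood at 119 and 91.7 RPKM in hypoxic and normoxic SUM1315 against 0.525 to 2.34 RPKM in the other lines. The hypoxia genes DDIT4, BNIP3, SLC2A1, VEGFA and ANKRD37 rose, by 1.54 (VEGFA) to 3.60 (DDIT4) on the log2 scale. The hypoxia gene CA9 was below the filter and not tested. It stood at 9.40 and 0.316 RPKM in hypoxic and normoxic SKBR3, 0.946 and 0 in T47D, and 0.0283 and 0 in SUM1315. The step size of the values gives a depth of 21.7 to 33.4 reads (or pairs) per kilobase for each RPKM. Among the members called changed, the value with the fewest reads behind it, 3.09 RPKM of LSG1 in hypoxic SUM1315, thus rests on 68.1 reads or pairs per kilobase.

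Under hypoxia 14 of the 58 tested members fell and 1 rose. Across all tested genes 2.26% fell and 4.12% rose, against 24.1% and 1.72% of the members. As the list was drawn up with earlier results known, the contrast with all genes is a description. By role group, 5 of 9 Brix-domain proteins and partners, 5 of 16 early nucleolar factors and 4 of 10 late maturation factors fell. The late group, as drawn up here, includes GRWD1, the counterpart of a yeast chaperone of free RPL3. None fell among the PeBoW complex, the RNA helicases, the methyltransferases, the nucleolar GTPases, the AAA ATPases with their docking factors, and the LAS1L group. Calls are those of limma on log2(RPKM + 1) with cell line as a block (adjusted p under 0.05 over all 10253 genes), and fold changes are hypoxia minus normoxia on that scale. The added 1 makes changes of weakly expressed genes look smaller. Each of the 14 went down in all 3 lines, and the 1 rise went up in all 3. The calls come from these same ratios, so this agreement is no separate evidence. With no filter on low values, 0 members passed (21 lower and 4 higher at an unadjusted p under 0.05), and likewise 0 without the cell line block (1 lower and 0 higher unadjusted). In the 6 groups with no call, 2 members (DDX56 and SENP3) were lower and 2 (DDX54 and GNL2) higher at an unadjusted p under 0.05.

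The median fold change of the members was -0.15, against -0.01 over all tested genes, and 37 of the 58 were below 0. Within the lines the median ratio was -0.27 in SUM1315, -0.02 in SKBR3 and -0.14 in T47D, against 0.00, -0.05 and 0.03 for all genes. For 28 members (48.3%) the log2 ratio was below 0 in all 3 lines, as in 25.2% of tested genes. For 14 members (24.1%) it was above 0 in all 3, as in 23.5% of tested genes. The summed RPKM of the 59 genes was 1253 in hypoxic and 1703 in normoxic SUM1315, 1046 and 1184 in SKBR3, and 774 and 1094 in T47D, lower in the hypoxic library of every line. The most abundant genes weigh most in a sum. The median RPKM of the 58 tested members was 14.4 in hypoxic and 19.5 in normoxic SUM1315, and 5.42 and 7.14 in T47D. In SKBR3 that median was higher in hypoxia, 8.38 against 7.82.

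**Figure D1:**
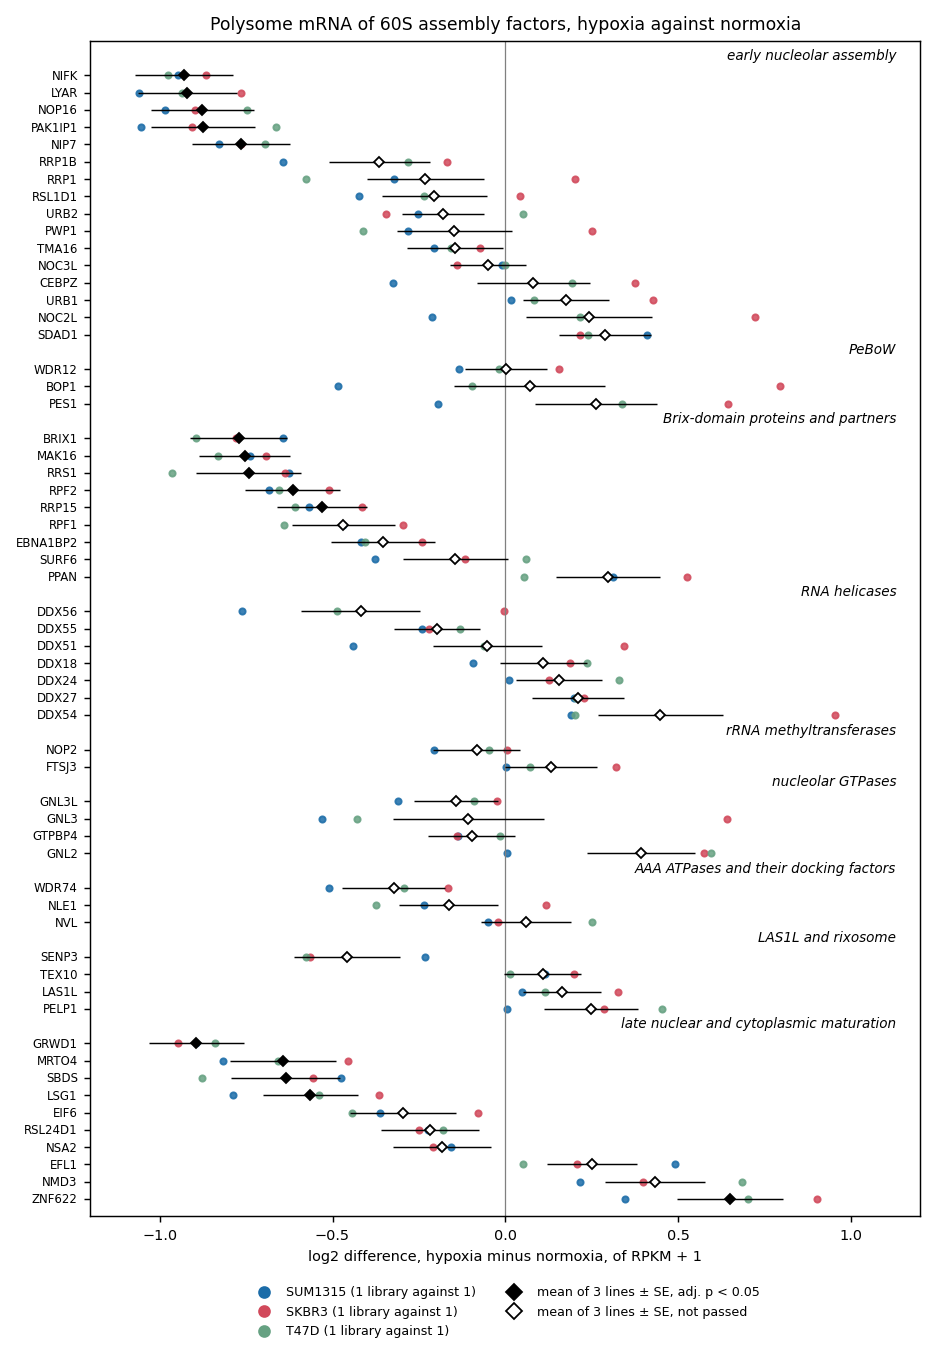
Log2 difference of RPKM + 1, hypoxia minus normoxia, for the 58 tested 60S assembly factors (rows, grouped by role). Coloured points are single lines (1 library against 1). Diamonds are the mean of 3 lines with the limma SE, which draws mostly on other genes, filled where the limma adjusted p was under 0.05. The 15 filled diamonds lie at -0.53 or below except that of ZNF622, at 0.65.

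Among the early nucleolar factors the lowest was NIFK, the nucleolar partner of the proliferation marker Ki-67 (chromosome 2, 121726945 to 121736923, minus strand, GRCh38). Its RPKM was 22.7 in hypoxic and 44.7 in normoxic SUM1315, 14.8 in hypoxic and 27.8 in normoxic SKBR3, and 7.37 in hypoxic and 15.5 in normoxic T47D. The lines differ more in level than the oxygen levels do, so the groups of 3 overlap, while the log2 ratio within a line was -0.95 (SUM1315), -0.87 (SKBR3) and -0.98 (T47D). The fold change was -0.93 ± 0.14 (limma SE, n = 3 lines, adjusted p = 0.0081). Like every SE of a fold change here, it draws mostly on the spread of other genes, not on these 3 ratios alone.

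LYAR, a zinc finger protein of the nucleolus (chromosome 4, 4267701 to 4290169, minus strand), had 23.7 RPKM in hypoxic and 50.4 in normoxic SUM1315, 4.47 in hypoxic and 8.31 in normoxic SKBR3, and 8.09 in hypoxic and 16.4 in normoxic T47D. It fell by 0.92 (SE 0.14, adjusted p = 0.0089). NOP16, a nucleolar protein of early pre-60S particles (chromosome 5, 176383938 to 176388975, minus strand), was at 37.0 and 74.2 RPKM in hypoxic and normoxic SUM1315, at 28.2 and 53.4 in SKBR3, and at 26.9 and 45.8 in T47D. Here all 3 hypoxic libraries lay below all 3 normoxic ones, and the fold change was -0.88 ± 0.15 (adjusted p = 0.012). Of its exonic bases 20.0% overlap genes of the other strand, ARL10 and HIGD2A, with the strand setting of the counting not given in the sources used here.

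PAK1IP1, a WD-repeat protein needed for pre-rRNA processing that also binds the kinase PAK1 (chromosome 6, 10694695 to 10709782, plus strand), was the one of these with its lowest level in SUM1315. It had 8.86 RPKM in hypoxic and 19.5 in normoxic SUM1315, 23.0 and 44.0 in hypoxic and normoxic SKBR3, and 15.1 and 24.5 in hypoxic and normoxic T47D, a fold change of -0.88 ± 0.15 (adjusted p = 0.013). NIP7, whose yeast counterpart acts in the cutting of large-subunit precursors (chromosome 16, 69337996 to 69343111, plus strand), had 26.1 and 47.2 RPKM in hypoxic and normoxic SUM1315, 7.98 and 14.3 in SKBR3, and 10.7 and 17.95 in T47D. It fell by 0.76 (SE 0.14, adjusted p = 0.017), with 20.2% of its exonic bases shared with COG8 on the other strand. The 5 calls of this group (NIFK, LYAR, NOP16, PAK1IP1 and NIP7) held with any line left out.

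The other 11 early factors did not pass. The scaffold proteins URB1, NOC2L and CEBPZ, counterparts of yeast Npa1, Noc2 and Noc1, had fold changes of 0.17, 0.24 and 0.08, and NOC3L and URB2 of -0.05 and -0.18. NOC2L was at 17.9 and 20.9 RPKM in hypoxic and normoxic SUM1315 and at 16.9 and 9.83 in SKBR3, so the lines went apart. The paralogs RRP1 and RRP1B had -0.23 ± 0.17 and -0.37 ± 0.15. RSL1D1, PWP1 and TMA16 lay between -0.21 and -0.15, and SDAD1, the highest of the group, had 15.1, 5.37 and 4.10 RPKM in hypoxic SUM1315, SKBR3 and T47D against 11.2, 4.48 and 3.32 RPKM in normoxic cells (0.29 ± 0.13, adjusted p = 0.20). A named pseudogene of SDAD1 took 1.16% to 17.9% of their joint RPKM and was higher in the hypoxic library of each line, so the value of SDAD1 is uncertain. Summed, the 2 gave log2 ratios of 0.62 (SUM1315), 0.29 (SKBR3) and 0.45 (T47D), against 0.41, 0.22 and 0.24 for SDAD1 alone.

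The Brix-domain proteins, which share a fold that binds RNA, act with fixed partners. In yeast Brx1 pairs with Ebp2, Rpf1 with Mak16, Rpf2 with Rrs1, and Ssf1 with Rrp14 and Rrp15. Their human counterparts here are BRIX1 and EBNA1BP2, RPF1 and MAK16, RPF2 and RRS1, and PPAN with SURF6 and RRP15. At least 1 protein of each set fell, 5 of the 9 in all, with a group median of -0.53.

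BRIX1 (chromosome 5, 34915376 to 34925996, plus strand) was at 10.0 RPKM in hypoxic and 16.2 in normoxic SUM1315, 8.98 and 16.1 in hypoxic and normoxic SKBR3, and 6.69 and 13.3 in hypoxic and normoxic T47D. Its hypoxic libraries lay below every normoxic one. It fell by 0.77 (SE 0.14, adjusted p = 0.015). EBNA1BP2, the partner and the second most abundant of the members, had 132, 85.9 and 45.0 RPKM in hypoxic SUM1315, SKBR3 and T47D against 176, 102 and 59.95 RPKM in the normoxic libraries, lower in all lines but not past the threshold (-0.35 ± 0.15, adjusted p = 0.17).

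RPF2 and RRS1 together bring the 5S rRNA with the ribosomal proteins RPL5 and RPL11 into the particle, and both fell. RPF2 (chromosome 6, 110982015 to 111028263, plus strand) had 12.5 and 20.7 RPKM in hypoxic and normoxic SUM1315, 5.62 and 8.43 in SKBR3, and 6.37 and 10.6 in T47D (-0.62 ± 0.14, adjusted p = 0.031). RRS1, on chromosome 8 at 66429028 to 66430733 (plus strand), had 43.7 and 68.0 RPKM in hypoxic and normoxic SUM1315, 10.2 and 16.4 in SKBR3, and 17.2 and 34.5 in T47D (-0.74 ± 0.15, adjusted p = 0.023), and 11.4% of its exonic bases overlap another gene. Of the 2 cargo proteins, RPL11 also fell (-0.62 ± 0.15, adjusted p = 0.037), and RPL5 had -0.29 ± 0.15 (adjusted p = 0.24).

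MAK16 (chromosome 8, 33484750 to 33501260, plus strand) was at 9.31 and 16.2 RPKM in hypoxic and normoxic SUM1315, 3.196 and 5.77 in SKBR3, and 3.97 and 7.84 in T47D. It fell by 0.75 (SE 0.13, adjusted p = 0.013), and 19.2% of its exonic bases overlap TTI2 on the other strand. Its partner RPF1 was lower in every line, at 49.0, 16.9 and 8.76 RPKM in hypoxic SUM1315, SKBR3 and T47D against 68.3, 21.0 and 14.2 RPKM in normoxic cells, and did not pass (-0.47 ± 0.15, adjusted p = 0.085).

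In the set of PPAN, SURF6 and RRP15 the members differed in sign. RRP15 (chromosome 1, 218285287 to 218337983, plus strand) had 3.52 and 5.70 RPKM in hypoxic and normoxic SUM1315, 4.12 and 5.83 in SKBR3, and 4.84 and 7.91 in T47D, with all hypoxic libraries below all normoxic ones (-0.53 ± 0.13, adjusted p = 0.042). SURF6 had -0.14 ± 0.15 (adjusted p = 0.56). PPAN was the highest of the 9, at 39.6, 9.93 and 5.99 RPKM in hypoxic SUM1315, SKBR3 and T47D against 31.7, 6.60 and 5.74 RPKM in normoxic cells (0.30 ± 0.15, adjusted p = 0.24). Since 59.8% of the exonic bases of PPAN lie in the readthrough gene PPAN-P2RY11 and in P2RY11, reads cannot be assigned to it with certainty.

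**Figure D2:**
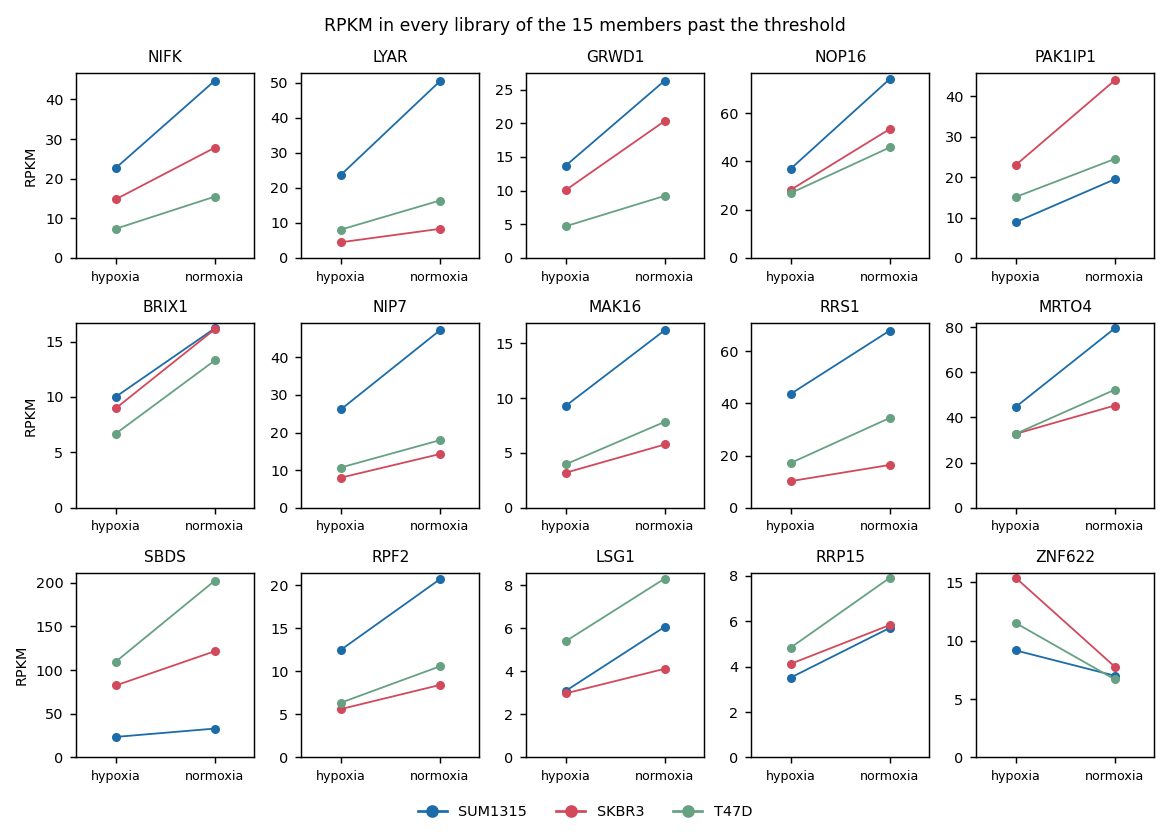
RPKM in every library of the 15 members past the threshold, ordered by fold change. Each panel joins the hypoxic (left) and the normoxic (right) library of a line, on a linear axis from 0; all lines slope the same way in each panel, and ZNF622 alone is higher in hypoxia.

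In the group drawn up as late nuclear and cytoplasmic maturation, 4 members fell and 1 rose. GRWD1 was placed in this group, although the role named next, the chaperone of free RPL3, comes before that protein joins the particle. GRWD1, whose yeast counterpart is the chaperone of free RPL3 (chromosome 19, 48445773 to 48457022, plus strand), was at 13.7 and 26.4 RPKM in hypoxic and normoxic SUM1315, 10.1 and 20.4 in SKBR3, and 4.71 and 9.22 in T47D. It fell by 0.89 (SE 0.14, adjusted p = 0.0084), with log2 ratios from -0.95 (SKBR3) to -0.84 (T47D). The mRNA of RPL3 itself had a fold change of 0.06 ± 0.15 (adjusted p = 0.82).

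MRTO4, which holds the place of the stalk protein P0 until export (chromosome 1, 19251539 to 19260128, plus strand), had 44.6 and 79.4 RPKM in hypoxic and normoxic SUM1315, 32.7 and 45.2 in SKBR3, and 32.7 and 52.2 in T47D. Its hypoxic libraries all lay below its normoxic ones (-0.64 ± 0.15, adjusted p = 0.037). LSG1, the cytoplasmic GTPase that frees the export adaptor NMD3 (chromosome 3, 194640788 to 194672477, minus strand), had 3.09 and 6.07 RPKM in hypoxic and normoxic SUM1315, 2.98 and 4.12 in SKBR3, and 5.40 and 8.31 in T47D (-0.56 ± 0.14, adjusted p = 0.041). The mRNA of NMD3 was higher in every line, at 7.45, 10.7 and 5.73 RPKM in hypoxic SUM1315, SKBR3 and T47D against 6.27, 7.88 and 3.19 RPKM in normoxic cells, without passing (0.43 ± 0.14, adjusted p = 0.096).

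The final step evicts EIF6, which keeps the subunits apart, through SBDS and the GTPase EFL1. SBDS, the gene mutated in most Shwachman-Diamond syndrome (chromosome 7, 66987677 to 66995601, minus strand), was at 23.5 and 33.1 RPKM in hypoxic and normoxic SUM1315, 82.4 and 122 in SKBR3, and 110 and 202 in T47D, and it fell by 0.64 (SE 0.16, adjusted p = 0.043). Its near-identical pseudogene SBDSP1 held 11.3% to 31.6% of their joint RPKM, so reads could be divided between the 2. Summed, SBDS and SBDSP1 gave log2 ratios of -0.52 (SUM1315), -0.57 (SKBR3) and -0.78 (T47D). EIF6, the most abundant member, had 228, 327 and 196 RPKM in hypoxic SUM1315, SKBR3 and T47D against 294, 345 and 268 RPKM in normoxic cells (-0.30 ± 0.15, adjusted p = 0.25). EFL1 had 0.25 ± 0.13 (adjusted p = 0.25).

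ZNF622, the human counterpart of the yeast cytoplasmic factor Rei1 (chromosome 5, 16451519 to 16465792, minus strand), was the 1 member that rose. Its RPKM was 9.15 in hypoxic and 6.99 in normoxic SUM1315, 15.4 in hypoxic and 7.76 in normoxic SKBR3, and 11.5 in hypoxic and 6.68 in normoxic T47D, with no overlap between the groups (0.65 ± 0.15, adjusted p = 0.036). NSA2 and RSL24D1, which enter the particle in the nucleus, had -0.18 and -0.22, and 58.7% of the exonic bases of NSA2 overlap other genes on the opposite strand.

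In all, 5 tested members (NOP16, BRIX1, RRP15, WDR74 and MRTO4) had each hypoxic library below each normoxic one, where 1.8% of all tested genes did, and ZNF622 was the only one the other way, where 2.16% of tested genes were. WDR74, the partner of the ATPase NVL, had 15.6, 20.3 and 19.6 RPKM in hypoxic SUM1315, SKBR3 and T47D against 22.6, 22.9 and 24.3 RPKM in normoxic cells, and its fold change did not pass (-0.32 ± 0.15, adjusted p = 0.20).

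The remaining groups, none of which held a call, stayed between -0.46 (SENP3) and 0.45 (DDX54). PES1, BOP1 and WDR12, the PeBoW complex that is needed for removal of the second internal spacer, had 0.26 ± 0.18, 0.07 ± 0.22 and 0.00 ± 0.12. BOP1 was at 24.4 and 34.5 RPKM in hypoxic and normoxic SUM1315, at 18.2 and 10.1 in SKBR3, and at 5.44 and 5.88 in T47D, so that SKBR3 went the other way. PES1 had 11.4 and 6.92 RPKM in hypoxic and normoxic SKBR3, 29.1 and 33.5 in SUM1315, and 6.27 and 4.76 in T47D. WDR12 had 3.18, 1.43 and 0.819 RPKM in hypoxic SUM1315, SKBR3 and T47D against 3.59, 1.18 and 0.841 RPKM in normoxic cells.

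Of the 7 DEAD-box helicases, DDX54 was highest (0.45 ± 0.18, adjusted p = 0.15) and DDX56 lowest (-0.42 ± 0.17, adjusted p = 0.16). DDX54 had 35.3 RPKM in hypoxic and 17.7 in normoxic SKBR3, and much closer values in SUM1315 (22.3 and 19.4) and T47D (17.5 and 15.1). DDX56 had 15.3, 17.4 and 10.9 RPKM in hypoxic SUM1315, SKBR3 and T47D against 26.7, 17.5 and 15.6 RPKM in normoxic cells, so that SKBR3 stayed level. DDX18, DDX24, DDX27, DDX51 and DDX55 lay between -0.20 and 0.21. The rRNA methyltransferases NOP2 and FTSJ3 had -0.08 and 0.13. NOP2 had 8.49, 3.82 and 0.921 RPKM in hypoxic SUM1315, SKBR3 and T47D against 9.95, 3.81 and 0.986 RPKM in normoxic cells, and FTSJ3 7.18, 4.43 and 3.16 against 7.17, 3.35 and 2.96. Of the overlaps, 54.4% of the exonic bases of NOP2 lie in another GENCODE gene on the same strand.

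The nucleolar GTPases GNL2, GTPBP4, GNL3 and GNL3L had 0.39, -0.10, -0.11 and -0.14, none past the threshold. GNL2 was at 5.56 and 3.40 RPKM in hypoxic and normoxic SKBR3 and at 3.80 and 2.18 in T47D, and equal in SUM1315 (15.6 in both). GNL3L had 2.48, 1.66 and 1.29 RPKM in hypoxic SUM1315, SKBR3 and T47D against 3.32, 1.71 and 1.44 RPKM in normoxic cells. A pseudogene held up to 43.5% of its joint RPKM with GNL3L. Summed, the 2 gave log2 ratios of -0.27 (SUM1315), -0.23 (SKBR3) and -0.38 (T47D), against -0.31, -0.03 and -0.09 for GNL3L alone. GNL3, nucleostemin, was at 34.8 and 21.97 RPKM in hypoxic and normoxic SKBR3, at 24.9 and 36.4 in SUM1315, and at 7.32 and 10.2 in T47D. It was the 1 member with log2 ratios of 0.5 or more in opposite directions, as were 0.614% of all tested genes.

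NVL and NLE1, an AAA ATPase of the nucleolus and the protein on which MDN1 docks, had 0.06 and -0.16. NVL had 1.57, 11.8 and 2.49 RPKM in hypoxic SUM1315, SKBR3 and T47D against 1.67, 11.96 and 1.93 RPKM in normoxic cells. MDN1, among the largest proteins of the cell, was at 0.725, 0.426 and 0.214 RPKM in hypoxic SUM1315, SKBR3 and T47D and at 0.879, 0.434 and 0.246 in normoxic cells, under 1 RPKM in all 6 libraries. The ITS2 nuclease subunit LAS1L and its associates TEX10 and PELP1 had 0.16, 0.11 and 0.25. PELP1 had 5.66, 3.52 and 2.58 RPKM in hypoxic SUM1315, SKBR3 and T47D against 5.64, 2.71 and 1.61 RPKM in normoxic cells, while the SUMO protease SENP3 of the same group had -0.46 ± 0.15 (adjusted p = 0.098). SENP3 was at 50.8, 26.6 and 17.2 RPKM in hypoxic SUM1315, SKBR3 and T47D against 59.8, 39.8 and 26.2 RPKM in normoxic cells, and 41.2% of its exonic bases lie in the readthrough gene SENP3-EIF4A1.

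Within single lines, where 1 library was compared with 1 and nothing could be tested, 17 members were lower by 0.5 or more in hypoxic SUM1315, 12 in SKBR3 and 17 in T47D, against 4.48%, 8.64% and 10.5% of all tested genes. No member was higher by as much in SUM1315, 3 were in T47D (GNL2, NMD3 and ZNF622) and 8 in SKBR3 (NOC2L, PES1, BOP1, PPAN, DDX54, GNL2, GNL3 and ZNF622), against 8.47%, 12.3% and 8.66% of all tested genes in SUM1315, T47D and SKBR3. Whether the lines differ in their response could not be tested.

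**Figure D3:**
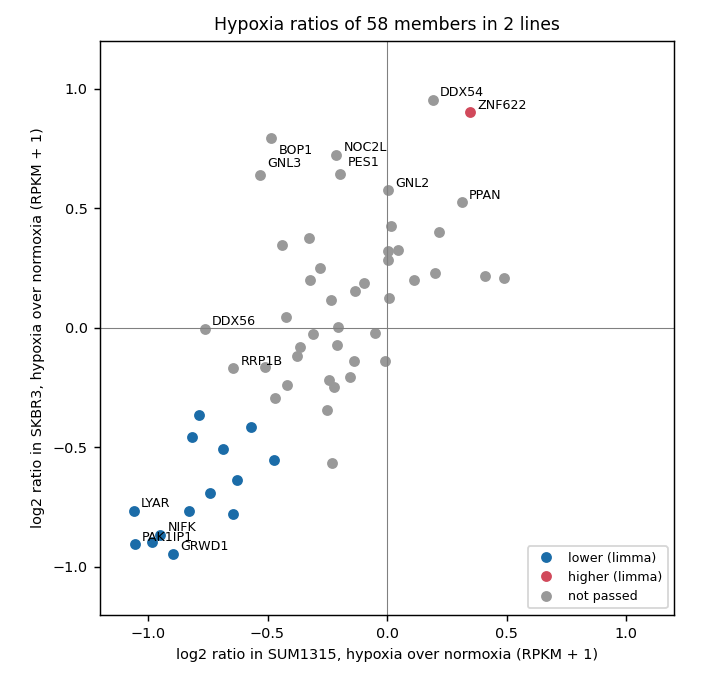
Log2 ratio of RPKM + 1, hypoxia over normoxia, in SUM1315 (horizontal) and SKBR3 (vertical) for the 58 tested members, each point 1 library against 1. The 14 members that fell sit at the lower left, ZNF622 at the upper right, and BOP1, PES1, NOC2L and GNL3 at the upper left, above 0 in SKBR3 and below 0 in SUM1315.

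Related genes were set beside the members. Of 29 other tested genes of large-subunit assembly and export, 1 fell and 1 rose (3.45% each, against 2.26% and 4.12% of all tested genes). Their median was -0.19. At an unadjusted limma p under 0.05, 12 of the 29 were lower and 3 higher, against 19 and 4 of the 58 members. In 14 of the 29 (48.3%) the log2 ratio was below 0 in all 3 lines, the same share as among the members. The called fall was in CCDC86, a nucleolar protein (-0.90 ± 0.15, adjusted p = 0.011). The called rise was in XRN2, the exonuclease that trims spacers (0.84 ± 0.14, adjusted p = 0.011). Next to these came NXT1 (-0.54 ± 0.17, adjusted p = 0.076) and DDX21 (0.66 ± 0.18, adjusted p = 0.059).

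Of 51 tested factors of the small-subunit processome and 40S assembly, 5 fell (9.80%) and 1 rose, with a median of -0.13, close to that of the members. The ends of that list were LTV1 (-0.98 ± 0.14) and PNO1 (-0.82 ± 0.14), and RIOK3 (0.99 ± 0.14) and UTP14A (0.35 ± 0.12, adjusted p = 0.12). Of 47 large-subunit ribosomal proteins 19 fell (40.4%), none rose (none at an unadjusted p under 0.05 either), and the median was -0.55, from RPL26 (-1.07 ± 0.20) and RPL27A (-0.90 ± 0.16) to RPL4 (0.07 ± 0.16) and RPL41 (0.14 ± 0.15). The differences between these lists were not tested. MYC, which activates many ribosome assembly genes, was at 55.1, 23.5 and 14.6 RPKM in hypoxic SUM1315, SKBR3 and T47D against 20.7, 17.97 and 7.10 RPKM in normoxic cells, and rose by 0.89 ± 0.19 (adjusted p = 0.027).

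**Figure D4:**
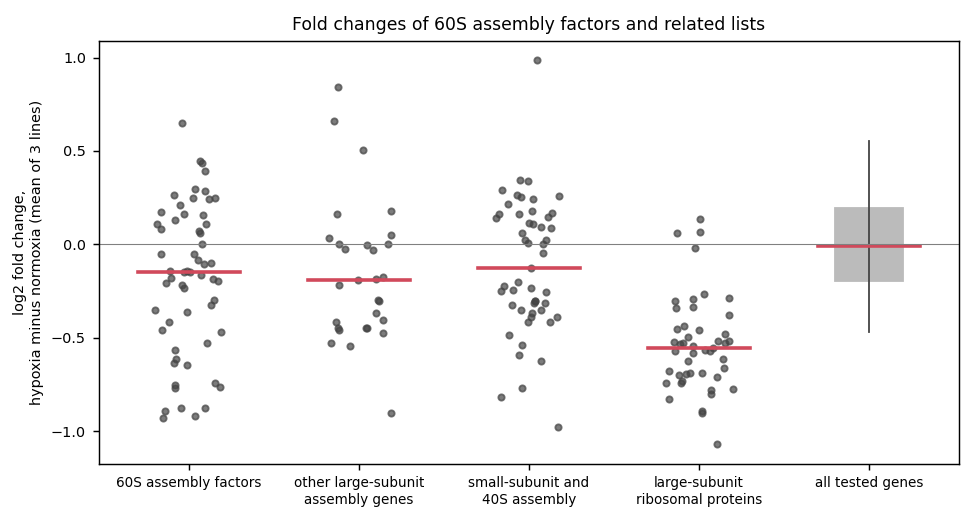
Log2 fold change, hypoxia minus normoxia (mean of 3 lines), of tested genes in 4 lists, 1 point per gene, with the list median in red. All tested genes are shown by the box of their quartiles and a line from the 5th to the 95th percentile. Medians are -0.15 (60S assembly factors), -0.19, -0.13, -0.55 and -0.01 from left to right.

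Because MYC rose, its motif was looked for in RefSeq promoters (GRCh38.p14, 250 bases before to 50 after RefSeq's gene start), which matched 51 of the 59 symbols. The motif searched was the E-box CACGTG, which binds MYC with MAX and reads the same on both strands; it contains ACGTG, the core letters of a HIF site. CACGTG was in 16 of the 51 members' windows (31.4%), in 10.7% of 7960 windows of tested genes and in 7.26% of all 35116. ACGTG on either strand was in 20 of the 51 (39.2%), in 28.2% of windows of tested genes and in 21.4% of all. These counts include every CACGTG window, 16 of the 20 among the members and 851 of 2242 among tested genes. They are therefore no separate count of HIF core letters. Of the 11 members that fell and had a window, 2 held CACGTG, as did 13 of 38 that did not pass. The sites of those 2 members, PAK1IP1 and MRTO4, are shown with those of PES1, DDX54 and GNL2, the highest fold change of their groups, and of EBNA1BP2, the partner of BRIX1. Each is written 5′ to 3′ on the gene's strand with the motif in capitals.
PAK1IP1: tggcggaagaggCACGTGcgctgctgaatg
MRTO4: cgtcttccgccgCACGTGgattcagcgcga
PES1: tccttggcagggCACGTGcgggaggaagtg
DDX54: ctcagcggaggtCACGTGgtcaccgcacct
GNL2: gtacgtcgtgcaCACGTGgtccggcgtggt
EBNA1BP2: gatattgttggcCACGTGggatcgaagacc
These stretches lie at chr6:10694959-10694988 (PAK1IP1, plus strand), chr1:19251807-19251836 (MRTO4, plus), chr22:30591880-30591909 (PES1, minus), chr12:113185522-113185551 (DDX54, minus), chr1:37595917-37595946 (GNL2, minus) and chr1:43172790-43172819 (EBNA1BP2, minus). Counted from 1 at RefSeq's gene start, the motif begins at position -1 in PAK1IP1, 15 in MRTO4 and 14 in PES1. It begins at 4 in GNL2, -61 in DDX54 and -237 in EBNA1BP2. In PAK1IP1 and MRTO4 RefSeq's start lies inside the GENCODE span given above. In PES1 and EBNA1BP2 it lies further inside, as their GENCODE spans (minus strand) begin at 30607083 and 43270936. A match describes the letters in the window and not binding.

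Most members were highest in SUM1315: 43 of 58 had their highest mean RPKM there, 8 in SKBR3 and 7 in T47D, and 31 had their lowest in T47D. In the same limma fit, with the 2 libraries of a line as its only replicates, 42 members were higher and 3 lower in SUM1315 than in the mean of SKBR3 and T47D (72.4% and 5.17%, against 42.5% and 29.1% of all tested genes). The median difference of the members was 0.95, against 0.19 for all tested genes.

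The largest differences upward were those of PPAN (2.20 ± 0.16, adjusted p = 9.41e-07), RRP1B (2.17 ± 0.16, adjusted p = 8.48e-07) and PES1 (2.01 ± 0.19, adjusted p = 5.60e-06). PPAN averaged 35.6 RPKM in SUM1315, against 8.27 in SKBR3 and 5.87 in T47D, RRP1B 21.3 against 4.64 and 3.14, and PES1 31.3 against 9.15 and 5.52. The 3 members lower in SUM1315 were SBDS (-2.09 ± 0.17, adjusted p = 1.92e-06), NVL (-1.29 ± 0.14, adjusted p = 1.63e-05) and PAK1IP1 (-0.86 ± 0.16, adjusted p = 0.00072). SBDS averaged 28.3 RPKM in SUM1315, against 102 in SKBR3 and 156 in T47D.

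Between SKBR3 and T47D, 18 members were higher and 11 lower in SKBR3 (31.0% and 19.0%, against 26.6% and 31.2% of all tested genes). NVL led with 2.01 ± 0.16 (adjusted p = 4.91e-06), at a mean of 11.9 RPKM in SKBR3 against 2.21 in T47D, followed by GNL3 (1.57 ± 0.27) and NOC2L (1.44 ± 0.22). The lowest were PWP1 (-0.90 ± 0.20), RRS1 (-0.86 ± 0.19) and LYAR (-0.82 ± 0.18). Of the 16 early factors 13 were higher (81.25%) and 1 lower (6.25%) in SUM1315 than in the other lines. Of the 9 Brix-domain proteins and partners 7 were higher (77.8%). Of the 10 factors grouped as late, GRWD1 included, 3 were higher (30%) and 1 lower (10%). Over all tested genes 42.5% were higher and 29.1% lower in SUM1315, both above the shares of the late group. The difference between the groups was not tested.

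**Figure D5:**
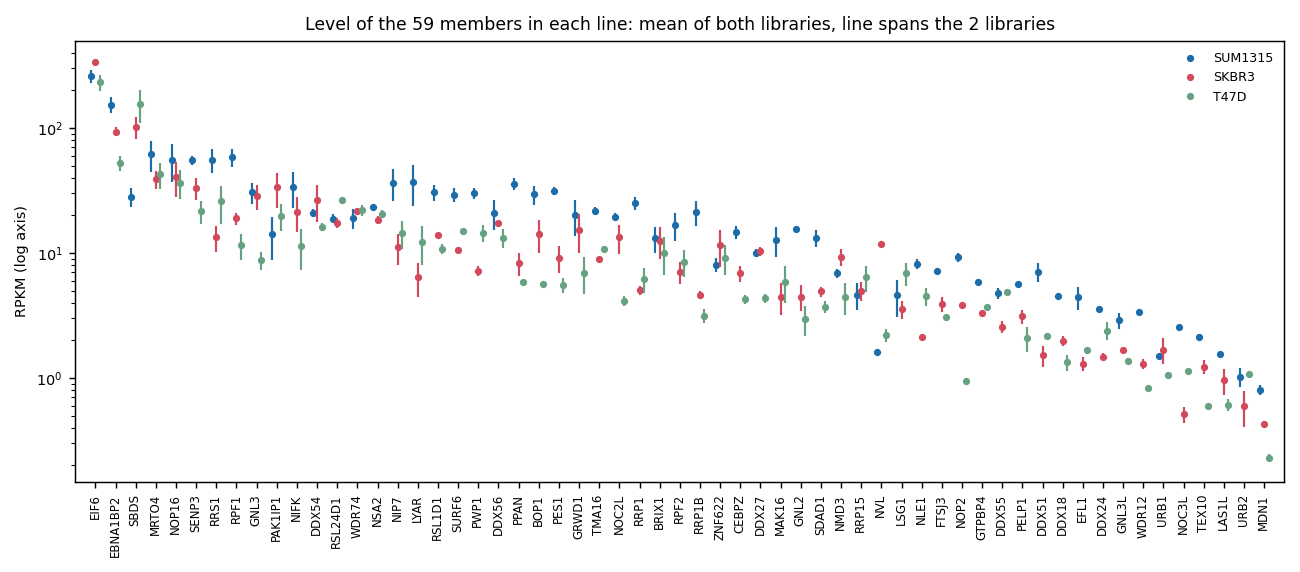
RPKM (log axis) of the 59 members, ordered by their mean over lines. Points are the mean of a line's 2 libraries and bars span the hypoxic and the normoxic library; EIF6 is highest and MDN1 lowest, SUM1315 is above the other lines for most members, and SBDS and NVL are exceptions.

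Levels per kilobase spanned a wide range within the machinery. EIF6 averaged 250 ± 68.0 RPKM in hypoxic and 302 ± 39.6 RPKM in normoxic cells (SD, n = 3 lines), EBNA1BP2 87.6 ± 43.5 and 113 ± 59.02, and SBDS 71.8 ± 44.0 and 119 ± 84.6. At the low end stood URB2 (0.789 ± 0.360 and 1.01 ± 0.207), LAS1L (1.15 ± 0.460 and 0.932 ± 0.511) and MDN1 (0.455 ± 0.256 and 0.520 ± 0.325). The genes of the PeBoW complex differed in RPKM. PES1 averaged 15.6 ± 11.99 RPKM in hypoxic and 15.1 ± 16.0 in normoxic cells and BOP1 16.0 ± 9.67 and 16.8 ± 15.5, while WDR12 stood at 1.81 ± 1.23 and 1.87 ± 1.501. Their GENCODE transcript lengths also differ, with 8100 bases for WDR12, 2144 for PES1 and 1477 for BOP1. Whether the length used for RPKM lowers the value of WDR12 was not tested.

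The 14 members that fell had a median GENCODE transcript length of 1753 bases, against 2150.5 for the other 44. Across the 58 members, length and log2 ratio had Spearman correlations of 0.11 (SUM1315), 0.13 (SKBR3) and 0.25 (T47D), a description over genes that share libraries. With the length trend of all genes removed the same number fell, 14, and 1 rose. With the trend in GC content removed 13 fell, RRP15 being the one lost (adjusted p = 0.064).

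Leaving out T47D left 6 falls and no rise, leaving out SUM1315 left 9 falls and 2 rises, and leaving out SKBR3 left 13 falls and no rise. NOP16, NIFK, PAK1IP1, LYAR, NIP7 and GRWD1 were called with any line left out. Without T47D the calls of BRIX1, MAK16, RRS1, RPF2, RRP15, MRTO4, LSG1, SBDS and ZNF622 were lost, at adjusted p from 0.062 (MAK16) to 0.19 (RRP15). Without SUM1315 those of RPF2, RRP15, MRTO4, LSG1 and SBDS were lost and GNL2 passed (0.58, adjusted p = 0.040), and without SKBR3 those of SBDS (adjusted p = 0.064) and ZNF622 (adjusted p = 0.085).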

How the data were processed

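Polysome-associated RNA was measured in 6 libraries, 3 per oxygen level. The deposited table, made by the authors, holds 1 column of RPKM values per library. Its header names no unit, which was read from the values. Value times length fell on whole multiples of 1 step (tolerance 0.02) in 59.7% to 63.3% of single-transcript GENCODE 29 genes. At a fixed step 4% would do so by chance, while the step was chosen on the same values. The multiples alone cannot tell RPKM from TPM. The column sums ran from 254223 to 297528, and TPM would give every library the same sum. Per the submitters' processing notes, Partek, SAMtools, HISAT2 and Trimmomatic were used with GRCh38 (hg38); versions, order and annotation are not given there. From the values as deposited, genes above the filter were fitted in limma (version 3.58.1, R 4.3.3) on log2(RPKM + 1), with terms for line and oxygen and a mean-variance trend. Tests are two-sided, with Benjamini-Hochberg adjustment over all tested genes. The lines named in the labels pair the libraries, and same-line deviations from the group means correlated at 0.94 to 0.97. Nothing else in the labels replicates a line. A gene's p-values draw in part on the spread of its response over 3 lines, and mostly on the spread of other genes. Those between lines use the same spread, as no line has a replicate library at the same oxygen level. Limma drew 8.02 degrees of freedom from other genes beside 2 of a gene's own. Depths cover counting error only. The fit was tested on simulated data. Alternatives were pseudocounts of 0.1 and 5, other filters, scalings and moderation, no block, and each line or library left out; removal of a length or GC trend was added after seeing the data. The members, the lists and the rule that names genes were chosen with earlier results of these data known. That rule takes every called member, the 3 highest and 3 lowest, the highest and lowest of each role group and the 2 highest and 2 lowest of each list. Coordinates and exon overlaps come from GENCODE 29 (GRCh38).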

Additional observations from a re-analysis of the deposited data

Results flagged for a closer look

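GNL3, nucleostemin, went in opposite directions in different lines: its log2 ratio of hypoxia over normoxia was 0.64 in SKBR3, against -0.53 in SUM1315 and -0.43 in T47D. Such a pattern, at least 0.5 up in one line and at least 0.5 down in another, occurred in 0.614% of all tested genes. With a single library per line and oxygen level, the difference was not tested.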

How the results depend on the processing

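The 14 falls and 1 rise among the members were kept in number with a pseudocount of 0.1, TPM scaling, robust moderation, the stricter filter and the length trend removed. With a pseudocount of 5 there were 9 falls and 0 rises among the members (171 higher and 72 lower of all genes), and with median-ratio scaling 10 falls and 0 rises. With no filter on low values 0 members and 0 genes of all passed in either direction (limma; 21 members lower and 4 higher at an unadjusted p under 0.05), and 10 members were higher and 6 lower in SKBR3 than in T47D. With no replicate block, ignoring the pairing by line, 0 members and 0 genes passed in either direction (1 member lower and 0 higher unadjusted). The filter of 1 RPKM in all 6 libraries gave 459 lower genes, against 232. Leaving out 1 line gave 6 to 13 falls and 0 to 2 rises among the members, and 179 to 552 higher and 53 to 271 lower genes. Leaving out 1 library gave 11 to 21 members higher and 7 to 10 lower in SKBR3 than in T47D, with the fewest higher, 11, without hypoxic SKBR3 or hypoxic T47D. Median-ratio scaling gave 7 members lower in SUM1315, against 3. The cause was not tested. For the comparisons between lines, these runs gave no counts over all tested genes, so the shifts cannot be set beside all genes. No called member changed sign in any alternative run. Of the fold changes that did not pass, those of 7 members changed sign, and none passed there. Leaving out 1 line, BOP1 ranged between -0.29 (without SKBR3) and 0.35, CEBPZ between -0.066 (without SKBR3) and 0.28, WDR12 between -0.077 (without SKBR3) and 0.069, and NVL between -0.036 (without T47D) and 0.11. GNL3 ranged between -0.48 (without SKBR3) and 0.10 (without SUM1315), and DDX51 between -0.25 (without SKBR3) and 0.14 (without SUM1315). With the GC trend removed BOP1 had -0.042 and NOC3L 0.0072, and WDR12 had -0.058 with the length trend removed and -0.0066 with a pseudocount of 5.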
